A study of Mus musculus with 220 samples.

Results

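High endothelial cells (HEC) of inflamed lymph nodes were set against HEC of resting nodes in a table of single-cell transcript levels. The inflamed group was made up of 65 cells and the homeostatic group of 79 cells, as their titles and treatment labels give them. Inflamed cells 43 and 60 were almost the same (r 0.988 over log2 values, while no other pair of cells exceeded 0.701), so they were averaged and counted as 1 cell. The comparison therefore held 64 inflamed and 79 homeostatic cells, 143 of the 219 cells of the whole series after the same averaging.

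All cells came from C57BL/6 mice. Inflamed HEC were taken 3 days after 4% oxazolone, a contact sensitiser, was put on the skin, and homeostatic HEC came from untreated mice. Shown beside them are 44 dedifferentiated HEC, harvested on day 7 after a single injection of LTBR-Ig into the peritoneum, a decoy receptor for lymphotoxin, and 32 blood endothelial cells (BEC) of untreated mice. Nodes were dissociated, cells were sorted by flow cytometry, and each cell had its own library from the Fluidigm C1 system. The labels name neither the animals nor the nodes, pools, chips or sort gates, so each group counts as 1 sample. Every difference below is therefore a description of these cells, with no replicate check and no p-value, and treatment cannot be told apart from animal, chip or day. Vehicle-painted mice were not analysed here.

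High endothelial cells line the post-capillary venules through which blood lymphocytes enter lymph nodes. They make sialomucins whose sulfated and fucosylated sugar chains are ligands for L-selectin on rolling lymphocytes, and they display chemokines that arrest those cells. Lymphotoxin signalling from dendritic cells keeps up this state, and after antigen or irritant on the skin the draining node enlarges and its venules take in more cells.

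Values are FPKM as the authors deposited them, that is, fragment numbers set against transcript length and against the fragments mapped in the cell. A level is the mean over cells of log2(FPKM + 1), given with its SD, and a difference is the level in inflamed HEC minus that in homeostatic HEC on the same scale. Ratios of low genes are understated on it. A gene was called higher or lower where its difference reached 1 in size, provided that over 10% of the cells of either group held it at an FPKM of at least 1 (the detection limit). Approximated depth had a median of 2097436 fragments per cell in inflamed HEC and 1827420 in homeostatic HEC. The median number of genes at an FPKM of 1 or more was 3961 (2585 to 5792) in inflamed HEC and 3842 (2112 to 5655) in homeostatic HEC.

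The labels were set against marker genes. Each of the 64 inflamed and each of the 79 homeostatic cells had at least 3 of the 7 high endothelial markers (Glycam1, Chst4, Fut7, Ccl21a, Gcnt1, Enpp2 and Ubd) and at least 3 of 12 pan-endothelial markers at an FPKM of 10 or more. So did 44 of 44 dedifferentiated HEC for both lists, and 26 of 32 BEC had 3 or more of the high endothelial markers at that FPKM, so that count hardly sets HEC apart from BEC. The median cell held 7 of the 7 in inflamed HEC (4 to 7) and in homeostatic HEC (4 to 7), against 3 in BEC (2 to 5). No compared cell held 3 or more lymphatic, pericyte, fibroblastic reticular or T cell markers at an FPKM of 10, and 1 homeostatic cell held 3 or more myeloid markers. Single markers of these lists were found at an FPKM of 1, among them Lck of T cells in 20.3% of inflamed and 16.5% of homeostatic cells and Rgs5 of pericytes in 10.9% of inflamed and 26.6% of homeostatic cells. Of 9 pan-leukocyte markers, 3 or more reached an FPKM of 10 in 6 of 64 inflamed cells (9.38%, exact Clopper-Pearson 95% interval 3.52 to 19.3) and in 19 of 79 homeostatic cells (24.1%, 15.1 to 35). These included 2 inflamed and 6 homeostatic cells with 3 or more B cell markers. The median cell held 1 of the 9 pan-leukocyte markers at that FPKM in inflamed HEC and 2 in homeostatic HEC. A count of 3 therefore lies close to the usual one and does not by itself mark leukocytes. All intervals on shares of cells cover counting error over cells only.

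In all, 9525 genes passed the detection limit. Of these, 522 (5.48%) were higher and 248 (2.6%) were lower in inflamed HEC. At a difference of 2 or more, 57 genes (0.598%) were higher and 46 (0.483%) were lower. Among the 3397 genes detected in at least 50% of the cells of either group, 12.7% were higher and 6.24% lower by 1 or more. Calls were thus more common among widely detected genes, and list counts below are to be read beside both pairs of shares. The median difference over all 9525 genes was 0.10 and the quartiles were −0.19 and 0.40. Higher genes made up 67.8% of the calls, but 52% where 46 inflamed and 53 homeostatic cells of similar gene number were compared. Most called genes differed in the share of cells that held the transcript. Of the 522 higher genes, 452 were found in a share of inflamed cells at least 10 percentage points larger, and 149 were at least 1 higher on the log2 scale among the cells that held them. The same counts for the 248 lower genes were 199 and 104.

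**Figure D1:**
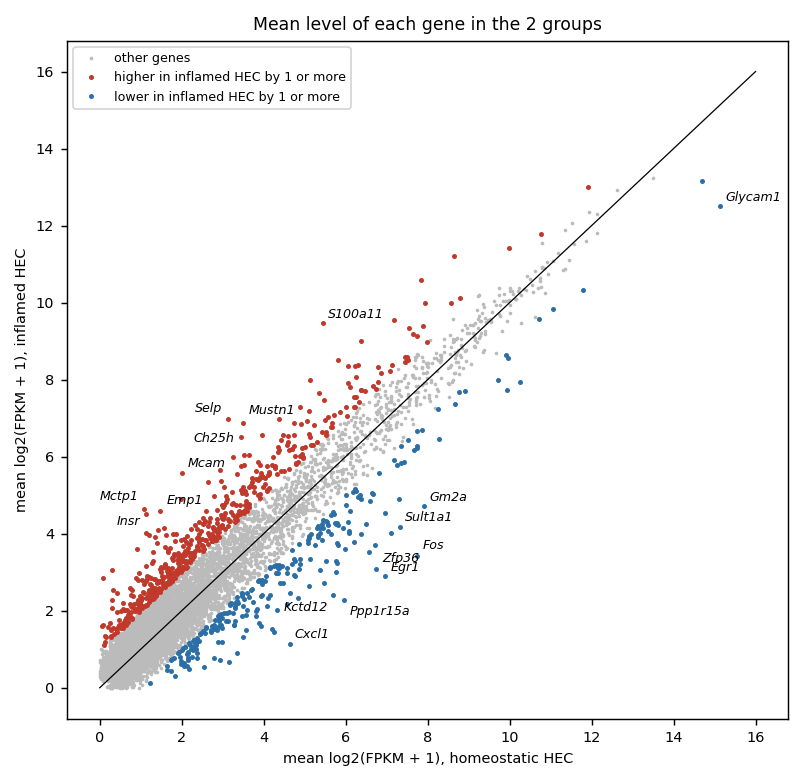
Mean log2(FPKM + 1) of each of the 9525 genes over 79 homeostatic HEC (horizontal axis) and 64 inflamed HEC (vertical axis), with equal levels on the diagonal. The 522 genes higher by 1 or more are red and the 248 lower ones are blue; S100a11 and Selp lie far above the diagonal and Fos and Cxcl1 far below it.

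Of the 7 high endothelial markers, 5 (71.4%) were lower in inflamed HEC, against 2.6% of all genes, and the other 2 lay near the homeostatic level. Glycam1 (chr15:103562759-103565081, GRCm38), which encodes a secreted mucin ligand of L-selectin, had 207.2, 6350 and 115300 FPKM as lowest, median and highest value in inflamed HEC. In homeostatic HEC the same values were 49.63, 59090 and 295500 FPKM. The groups overlapped over most of their range, and only 7 of 64 inflamed cells lay above the homeostatic median. The Glycam1 level was 12.5 ± 2.54 in inflamed HEC and 15.13 ± 2.4 in homeostatic HEC, a difference of −2.62. It was 12.71 ± 2.33 in dedifferentiated HEC and 6.22 ± 0.89 in BEC, so inflamed HEC stayed far above BEC.

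Ccl21a, whose product arrests lymphocytes through CCR7, had a median of 21030 FPKM (87.51 to 141400) in inflamed HEC and of 57490 FPKM (6.37 to 152300) in homeostatic HEC, with a difference of −1.53. Ccl21a has near-identical copies in the mouse genome, and how reads shared with them were assigned is not given in the sources used here. Its level was 13.17 ± 2.88 in inflamed HEC and 14.7 ± 2.89 in homeostatic HEC, while dedifferentiated cells averaged 15.21 ± 2.7. The sum of Glycam1 and Ccl21a was a median of 4.06% of all FPKM of a cell in inflamed HEC (0.0853% to 28.3%) and of 20.8% in homeostatic HEC (0.471% to 43.2%). FPKM share out the fragments of a cell among its genes, so this gap moves with the other differences. With each cell scaled to its common genes, 575 genes were higher and 335 lower, and all 30 leading genes stayed past 1.

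Among 16 glycosylation enzymes of L-selectin ligands, 1 was higher and 4 were lower, and the median difference was −0.06. The core branching enzyme Gcnt1 had a median of 32.05 FPKM (0 to 325.5) in inflamed HEC and of 132.9 FPKM (0 to 723.7) in homeostatic HEC, and its difference was −2.25. Fucosyltransferase Fut7 differed by −1.58, sialyltransferase St3gal6 by −1.33 and sulfotransferase Chst2 by −1.12. The other sulfotransferase of these chains, Chst4, lay at 7.29 ± 2.56 in inflamed HEC and at 6.98 ± 2.95 in homeostatic HEC, a difference of 0.32 that is small beside the spread over cells. The extension enzyme B3gnt3 was the higher one, at a median of 19.32 FPKM (0 to 780.9) in inflamed HEC and of 2.19 FPKM (0 to 431.2) in homeostatic HEC, with a difference of 1.53. The 1 higher enzyme is 6.25% of the list, near the 5.48% of all genes, and the 4 lower ones are 25%, against 2.6% of all genes.

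Of 6 detected sialomucin carriers, Madcam1 (1.22) and Podxl (1.2) were higher, Glycam1 was lower, and Cd34 (−0.00), Cd164 (−0.15) and Emcn (−0.63) lay between. The higher and lower shares were 33.3% and 16.7%, against 5.48% and 2.6% of all genes, and the list median was −0.08. Madcam1 passed the filter through inflamed cells alone. Madcam1, the ligand of integrin α4β7 best known from gut-associated venules, was at 0 or near it in most cells of both groups. It reached an FPKM of 1 in 18 of 64 inflamed cells (28.1%, 17.6 to 40.8), in none of 44 dedifferentiated cells (0 to 8.04%) and in 5 of 79 homeostatic cells (6.33%, 2.09 to 14.2). The highest values were 2872 FPKM in an inflamed cell and 110.7 FPKM in a homeostatic cell.

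Other high endothelial genes encode secreted or cytosolic proteins rather than ligand enzymes. Enpp2, the lysophospholipase autotaxin that makes lysophosphatidic acid at the venule wall, was found in all cells, with a median of 958.1 FPKM (77.19 to 4732) in inflamed HEC and of 2374 FPKM (228 to 5549) in homeostatic HEC. Its difference was −1.22, with an SD of 1.2 and 0.9. Ubd, a ubiquitin-like protein induced by inflammatory cytokines, had a median of 6455 FPKM in inflamed HEC and of 5835 FPKM in homeostatic HEC, and its difference was 0.42.

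**Figure D2:**
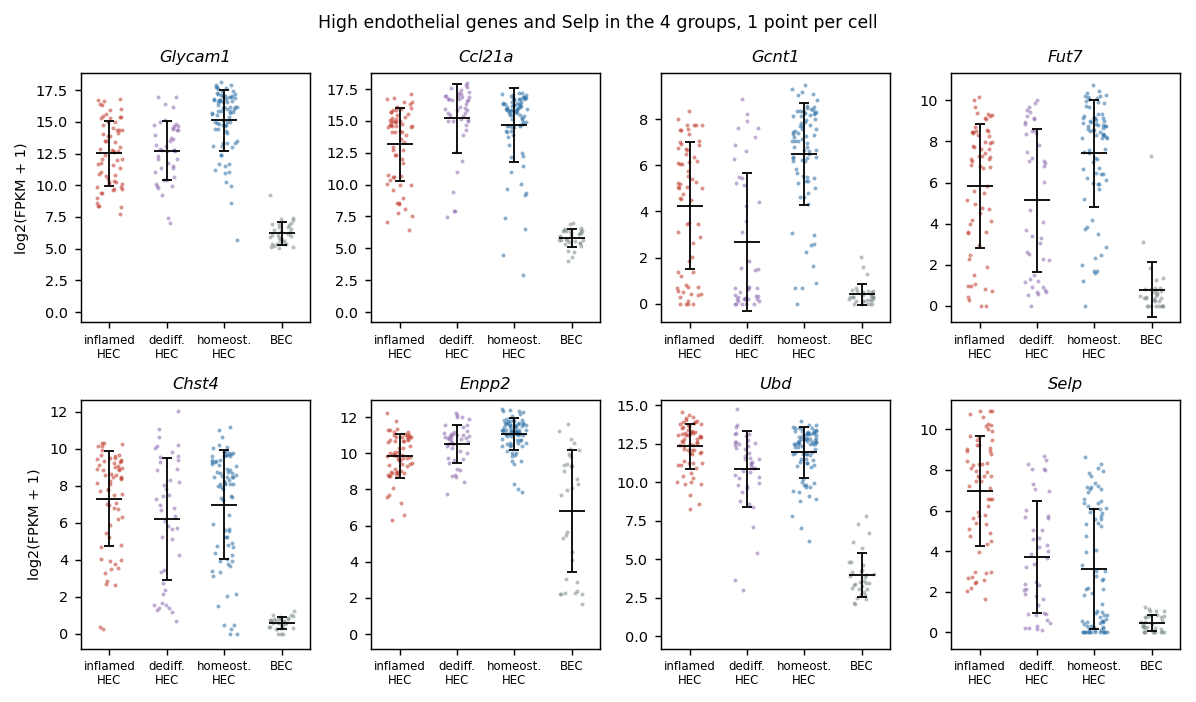
Log2(FPKM + 1) of 7 high endothelial genes and Selp, 1 point per cell, in 64 inflamed, 44 dedifferentiated and 79 homeostatic HEC and 32 BEC; bars give the mean ± SD over cells. Glycam1 and Gcnt1 lie lower in inflamed than in homeostatic HEC, Chst4 and Ubd lie at like levels, and Selp lies highest in inflamed HEC.

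Adhesion molecules of leukocyte entry differed in both directions. Of 17 detected members 5 (29.4%) were higher and 2 (11.8%) lower, against 5.48% and 2.6% of all genes. Madcam1, 1 of the 5, passed the filter through inflamed cells alone (28.1%, against 6.33% of homeostatic cells). Their median was 0.48. Selp (chr1:164115264-164150026, GRCm38) encodes P-selectin, which is stored in Weibel-Palade bodies and captures leukocytes once it reaches the surface. Its lowest, median and highest values were 2.1, 201.2 and 1943 FPKM in inflamed HEC and 0, 3.43 and 400.2 FPKM in homeostatic HEC. All 64 inflamed cells were at an FPKM of 1 or more (94.4 to 100%), against 46 of 79 homeostatic cells (58.2%, 46.6 to 69.2), and 21 inflamed cells lay above the highest homeostatic cell. The difference was 3.86, from a Selp level of 6.98 ± 2.71 in inflamed HEC and of 3.12 ± 2.96 in homeostatic HEC, with dedifferentiated HEC at 3.72 ± 2.74. None of 32 BEC reached an FPKM of 10 (0 to 10.9%).

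Mcam, an immunoglobulin-family receptor of endothelial junctions, had a median of 81.85 FPKM (0.27 to 659.9) in inflamed HEC and of 0.5 FPKM (0 to 679.2) in homeostatic HEC, a difference of 3.58. The groups overlapped over their whole range, and the highest Mcam value was in a homeostatic cell. Cd47, which signals to SIRP family receptors on leukocytes, differed by 1.99 and was found in 63 of 64 inflamed and 72 of 79 homeostatic cells. E-selectin, encoded by Sele, differed by 1.75 and reached an FPKM of 10 in 27 inflamed and 9 homeostatic cells. Selp and Sele thus differed in the same direction, but Sele was detected in 33 of 64 inflamed cells (51.6%, 38.7 to 64.2) and Selp in all of them.

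Junctional adhesion molecule Jam3 was lower, with a median of 1.75 FPKM (0 to 559.7) in inflamed HEC and of 91.43 FPKM (0 to 996.5) in homeostatic HEC, a difference of −2.78. The tetraspanin Cd63, which keeps P-selectin clustered, differed by −1.09. The integrin ligands Vcam1 (−0.15) and Icam1 (−0.36), both textbook genes of inflamed endothelium, and the junction genes Pecam1 (−0.08) and Cdh5 (−0.01) lay between the limits. Of 10 detected Weibel-Palade body genes, Selp and Igfbp7 (1.33) were higher (20%, against 5.48% of all genes). Cd63 was the lower one (10%, against 2.6% of all genes). The carrier protein of Weibel-Palade bodies, Vwf, differed by 0.27 and the list median was −0.01.

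**Figure D3:**
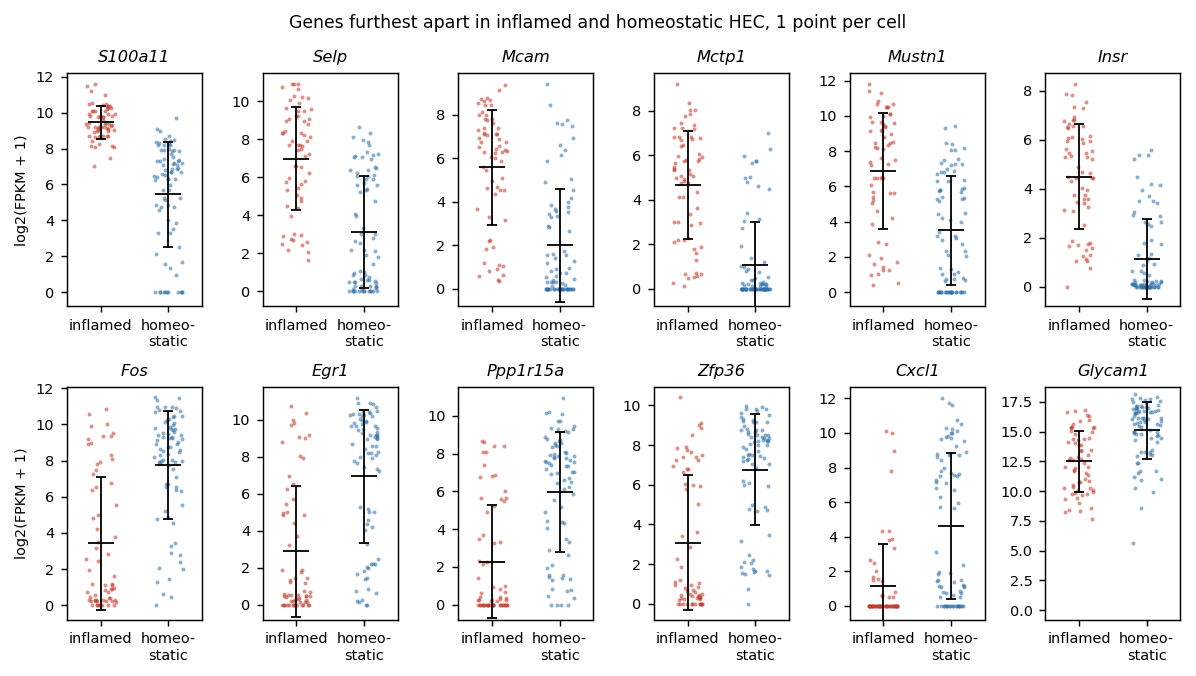
Log2(FPKM + 1) of the 6 genes with the largest positive differences (upper row) and of 6 genes with large negative differences (lower row), 1 point per cell, in 64 inflamed and 79 homeostatic HEC; bars give the mean ± SD over cells. Inflamed cells form a narrow band for S100a11, and cells at or near 0 are many in inflamed HEC for Fos, Egr1, Ppp1r15a, Zfp36 and Cxcl1.

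The largest positive difference of all belonged to S100a11 (chr3:93520488-93526287, GRCm38), a calcium-binding S100 protein that pairs with annexins. It had 129.4, 658.6 and 3140 FPKM as lowest, median and highest value in inflamed HEC, and 0, 91.38 and 847.2 FPKM in homeostatic HEC. Every inflamed cell lay above the homeostatic median, and 27 lay above the highest homeostatic cell. The level was 9.46 ± 0.91 in inflamed HEC and 5.44 ± 2.91 in homeostatic HEC, a difference of 4.01, and the inflamed cell was the higher one in 96.5% of all pairs of 1 inflamed and 1 homeostatic cell. Dedifferentiated HEC (6.01 ± 2.83) and BEC (4.59 ± 3.39) lay nearer to homeostatic HEC.

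Of the 14 detected S100 and annexin genes, S100a11 included, 7 (50%) were higher, against 5.48% of all genes, 1 was lower and the median was 1.03. Anxa2, a membrane-binding annexin, differed by 2.64, and its S100 partner S100a10 by 2.29. Anxa1, known for restraining leukocyte recruitment, had a median of 474.1 FPKM (0.68 to 1875) in inflamed HEC and of 58.26 FPKM (0 to 1530) in homeostatic HEC, a difference of 2.83. Anxa7, S100a6 and S100a13 differed by 1.54, 1.43 and 1.12. Anxa5 went the other way, at −1.82, with an SD of 3.1 in inflamed HEC and of 1.83 in homeostatic HEC. S100a8 and S100a9, the abundant pair of neutrophils, did not pass the detection limit.

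The other genes among the 15 largest positive differences had varied roles. Insr, the insulin receptor, had a median of 24.36 FPKM (0 to 308) in inflamed HEC and of 0.13 FPKM (0 to 46.87) in homeostatic HEC, a difference of 3.36. Mctp1, a calcium-binding membrane protein, reached an FPKM of 1 in 56 of 64 inflamed cells (87.5%, 76.8 to 94.4) and in 19 of 79 homeostatic cells (24.1%, 15.1 to 35), with a difference of 3.56. Both genes were thus near 0 in most homeostatic cells and present in most inflamed ones. Mustn1, a small nuclear protein first described in muscle and skeleton, differed by 3.37, membrane protein Emp1 by 3.13 and Nudt4, a hydrolase of inositol polyphosphates, by 2.91. Slco2a1, the prostaglandin transporter, differed by 2.88 and Tmem252 by 2.72.

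Serpinb1a, an inhibitor of neutrophil serine proteases, was abundant in both groups, with a median of 1898 FPKM (78.91 to 10430) in inflamed HEC and of 429 FPKM (0 to 3770) in homeostatic HEC. Its difference was 2.75, and its spread was narrower in inflamed HEC (SD 1.43) than in homeostatic HEC (SD 2.9). Serpinb1a belongs to a family of close copies, so reads may have been shared between them. Vcan, the matrix proteoglycan versican, was close to absent in homeostatic HEC. It reached an FPKM of 1 in 38 of 64 inflamed cells (59.4%, 46.4 to 71.5), in 5 of 44 dedifferentiated cells and in 1 of 79 homeostatic cells (1.27%, 0.032 to 6.85), and its difference was 2.75.

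Ch25h, which makes the oxysterol precursor of a guidance signal for EBI2-bearing lymphocytes, had a median of 164.4 FPKM (0 to 2587) in inflamed HEC and of 2.66 FPKM (0 to 1473) in homeostatic HEC, a difference of 3.07. Of the other oxysterol genes, Hsd3b7 differed by −0.15 and Cyp27a1 by −0.84, and Cyp7b1 did not pass the detection limit. Of 11 detected genes of lysophospholipid and sphingosine 1-phosphate handling, 3 (27.3%) were higher and 2 (18.2%) were lower. The shares of all genes were 5.48% and 2.6%. The higher ones were the lipid phosphatases Ppap2a (1.38) and Ppap2c (1.15) and the sphingosine 1-phosphate exporter Spns2 (1.23), and the lower ones were Enpp2 and the receptor Lpar6 (−1.16). In cells of similar gene number none of the lysophospholipid genes was higher.

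Basement membrane and matrix genes had a median of 1.19, the largest positive one of the 34 gene lists, against 0.10 for all genes. The S100 and annexin list came above it in cells of similar gene number (1.05, against 1.01) and at a pseudocount of 10 (0.76, against 0.56). The same held without cells with markers of another type (1.42, against 1.13). The mitotic list came above it on the ratio of mean FPKM (1.59, against 1.12). With genes required in 50% of cells of either group, the mitotic (1.85) and oxysterol (1.46) lists also did, each over few genes. Of 18 detected members, 11 (61.1%) were higher, against 5.48% of all genes, and 1 was lower. Lamb1, 1 of the 11, passed the filter through inflamed cells alone (35.9%, against 6.33% of homeostatic cells). Type IV collagen genes are the core of the vascular basement membrane. Col4a2 (chr8:11312805-11449287, GRCm38) had a median of 50.2 FPKM (1.21 to 409.3) in inflamed HEC and of 9.05 FPKM (0 to 288.5) in homeostatic HEC, a difference of 2.2. Its divergently placed neighbour Col4a1 had a median of 98.61 FPKM (0.37 to 473.5) in inflamed HEC and of 28.41 FPKM (0 to 488.9) in homeostatic HEC, a difference of 1.74. In BEC the levels were 5.69 ± 2.25 for Col4a2 and 6.99 ± 1.62 for Col4a1, so inflamed HEC (5.56 ± 1.84 and 6.31 ± 1.84) lay between homeostatic HEC and BEC for both.

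Sparc, a collagen-binding secreted protein, was found in all cells, with a median of 1028 FPKM (192.6 to 3048) in inflamed HEC and of 341.1 FPKM (1.03 to 2154) in homeostatic HEC. Its difference was 2.06, and 60 of 64 inflamed cells lay above the homeostatic median. The multiplexin collagens Col18a1 (2.76) and Col15a1 (1.28), the matrix protein Vwa1 (2.41), the collagen chaperone Serpinh1 (1.9), nidogen Nid1 (1.46), laminin chains Lamb1 (1.22) and Lamc1 (1.17) and perlecan, encoded by Hspg2 (1.16), completed the higher members. Timp3, a matrix-bound inhibitor of metalloproteinases, was the lower one at −1.49. Inflamed cells had a median of 10 of the 20 listed genes at an FPKM of 10 or more (3 to 16) and homeostatic cells a median of 7 (2 to 13).

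Of 34 type I interferon response genes, which all passed the detection limit, 16 (47.1%) were higher, against 5.48% of all genes, and 1 was lower. Their median was 0.63. Bst2, the membrane protein tetherin that holds back budding viruses, had a median of 466.6 FPKM (0.67 to 2079) in inflamed HEC and of 140.3 FPKM (0 to 2397) in homeostatic HEC, a difference of 2.06. Ifit3, a binder of viral RNA complexes, had a median of 10.54 FPKM (0 to 2253) in inflamed HEC and of 0.31 FPKM (0 to 2333) in homeostatic HEC, a difference of 1.89. The highest cell was a homeostatic one for both genes. Isg15, a ubiquitin-like modifier, reached an FPKM of 1 in 34 of 64 inflamed cells (53.1%, 40.2 to 65.7) and in 19 of 79 homeostatic cells (24.1%, 15.1 to 35), a difference of 1.68. Oas1a, a sensor of double-stranded RNA, reached that level in 34 inflamed cells as well and in 17 homeostatic cells (21.5%, 13.1 to 32.2), and differed by 1.48.

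Oasl2 (2.19), Zbp1 (2.04), Ifi27l2a (1.97) and the transcription factor Irf7 (1.78) were also higher. Others hardly differed, among them Rsad2 (0.03), Ifih1 (0.01) and Mx2 (0.12). Ifi27 was the lower member, at −2.07, with a median of 12.71 FPKM in inflamed HEC and of 118.6 FPKM in homeostatic HEC. The median cell held 16 of the 34 at an FPKM of at least 10 in inflamed HEC (6 to 29) and 12 in homeostatic HEC (4 to 31). Most of the difference for Oasl2 and Isg15 was in the share of cells, since the levels among cells that held them differed by 0.13 and 0.48.

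Promoters of 4 of the higher members are shown because they hold the interferon-stimulated response element, a motif known from promoters of interferon response genes. Each stretch of 100 bases runs 5′ to 3′ on the strand of the gene, is taken from RefSeq (GRCm38.p6) and has its first match to the motif in capitals. Further matches stay in lower case, overlapping the capitals in Bst2, Isg15 and Oas1a and lying after them in Ifit3.
Bst2 (chr8:71537548-71537647, minus strand): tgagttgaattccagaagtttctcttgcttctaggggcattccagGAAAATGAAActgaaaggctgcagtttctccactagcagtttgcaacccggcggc
Ifit3 (chr19:34583328-34583427, plus strand): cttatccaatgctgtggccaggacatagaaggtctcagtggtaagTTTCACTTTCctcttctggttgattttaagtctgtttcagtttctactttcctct
Isg15 (chr4:156200842-156200941, minus strand): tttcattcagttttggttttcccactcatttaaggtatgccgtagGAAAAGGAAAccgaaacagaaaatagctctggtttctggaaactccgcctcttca
Oas1a (chr5:120907491-120907590, minus strand): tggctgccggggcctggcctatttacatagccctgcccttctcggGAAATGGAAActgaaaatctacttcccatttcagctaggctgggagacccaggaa

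The motif searched was GAAANNGAAA on both strands, from 250 bases before to 50 bases after each gene start, so a match on the other strand reads as in Ifit3. The matches in capitals begin at −130 in Bst2, −156 in Ifit3, −78 in Isg15 and −20 in Oas1a, counted from the gene start. Of 27025 mouse genes with a promoter entry of this length, 1079 (3.99%) hold the motif in any of their entries. Of 22 listed members with a promoter entry, 12 (54.5%) hold it. Members that differed by 1 or more held it in 5 of 10 cases and the other members in 7 of 12, so the letters did not set the called members apart.

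Of 21 detected interferon gamma response genes, 7 (33.3%) were higher, against 5.48% of all genes, and none was lower, with a median of 0.73. Gbp7, a guanylate-binding protein of cell-autonomous defence, had a median of 132.5 FPKM (0.29 to 1178) in inflamed HEC and of 29.89 FPKM (0 to 1428) in homeostatic HEC, a difference of 1.82. Serpina3g (1.85), Gvin1 (1.63), Igtp (1.31), Gbp4 (1.25), Gbp2 (1.18) and Iigp1 (1.17) were the others. Irf1, an early transcription factor of this response, differed by −0.80. The chemokine Cxcl9, which is induced by interferon gamma and draws CXCR3-bearing T cells, reached an FPKM of 1 in 44 of 64 inflamed cells (68.8%, 55.9 to 79.8) and in 24 of 79 homeostatic cells (30.4%, 20.5 to 41.8). Its difference was 2.19, although the highest value, 5142 FPKM, was in a homeostatic cell. On the ratio of mean FPKM 1 member of the list was higher. Several of these genes belong to families of close copies whose reads may be shared.

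Antigen presentation genes split by class. In the MHC class I and immunoproteasome list, 4 of 22 members (18.2%, against 5.48% of all genes) were higher and none was lower. The median was 0.72. The higher ones were proteasome activator Psme2 (1.36), peptide transporter Tap2 (1.33) and the class I genes H2-Q6 and H2-T22 (1.13 each). The classical class I gene H2-K1 (0.12) and its light chain B2m (−0.25) were found in all cells and lay between the limits.

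MHC class II genes were lower where they differed, in 3 of 8 detected members (37.5%, against 2.6% of all genes), with a median of −0.59. Cd74, the invariant chain of class II, had a median of 5.43 FPKM (0 to 2817) in inflamed HEC and of 256.1 FPKM (0 to 5639) in homeostatic HEC, a difference of −3.07. H2-Aa differed by −1.79 and H2-DMa by −1.04. Summed FPKM of the 6 B cell markers in the table ranged up to 1142 in inflamed HEC and 2284 in homeostatic HEC, with medians of 0 and 0.24. Without the cells that held 3 or more markers of another cell type, all 30 leading genes, Cd74 among them, stayed past 1 in the same direction. Cd74 was picked as a leading gene in these same cells, and cells with fewer such markers stayed in. The part of B cell transcripts in the class II differences was not tested.

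Immediate early genes gave the largest negative differences. They encode transcription factors and feedback proteins that appear within minutes of a stimulus, and they are also switched on by tissue dissociation. Fos (chr12:85473890-85477273, GRCm38) had 0, 1.255 and 1851 FPKM as lowest, median and highest value in inflamed HEC and 0, 402.7 and 2897 FPKM in homeostatic HEC. It reached an FPKM of 1 in 35 of 64 inflamed cells (54.7%, 41.7 to 67.2) and in 76 of 79 homeostatic cells (96.2%, 89.3 to 99.2), and its difference was −4.33. Egr1 differed by −4.07, the RNA-destabilising protein Zfp36 by −3.67, Jun by −2.38, phosphatase Dusp1 by −2.23, Fosb by −2.22, Ier2 by −1.94 and Junb by −1.10. Each of these genes was also high in some inflamed cells, so the groups overlapped.

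They were 8 of the 16 markers (50%) of dissociation and heat shock, while 2.6% of all genes were lower. None of the 16 was higher, and the median was −1.01. The heat shock members Hspa1a (0.91), Hsp90aa1 (0.87) and Hspb1 (0.79) had positive differences below the limit. Summed FPKM of the 16 markers had a median of 558.7 (24.82 to 6668) in inflamed HEC and of 1893 (62.27 to 7935) in homeostatic HEC. The part of dissociation or handling in these differences was not tested. Ppp1r15a, a stress-induced phosphatase subunit that lets translation resume, differed by −3.70, and the small GTPase Gem by −2.66.

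Of 25 lymphotoxin receptor and NF-kB genes, 2 (8.0%) were higher and 3 (12%) lower, against 5.48% and 2.6% of all genes. The higher share is near that of all genes. The receptors Ltbr, which binds lymphotoxin, and Tnfrsf1a, which binds tumour necrosis factor, were the higher members, while receptor Tnfrsf1b differed by 0.37. Ltbr had a median of 16.52 FPKM (0 to 500.5) in inflamed HEC and of 0.23 FPKM (0 to 219.4) in homeostatic HEC, a difference of 1.88, and its level was 1.66 ± 2.42 in dedifferentiated HEC. Tnfrsf1a differed by 1.29. The lower members were Nfkbiz (−2.50), an inhibitor-like co-factor, and the feedback inhibitors Nfkbia (−1.21) and Tnfaip3 (−1.18). The inhibitors Nfkbib (−0.44), Nfkbie (−0.24) and Tnip1 (−0.32) lay between the limits. Subunits Rela (−0.04), Relb (−0.35) and Nfkb2 (−0.45) and the noncanonical kinase Map3k14 (−0.11) lay between, and the list median was −0.11.

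Cxcl1, a chemokine that draws neutrophils, was among the 15 largest negative differences. It had 0, 0 and 1121 FPKM as lowest, median and highest value in inflamed HEC and 0, 7.51 and 4145 FPKM in homeostatic HEC. An FPKM of 10 was reached in 8 of 64 inflamed and 39 of 79 homeostatic cells, and its difference was −3.49. Its level in dedifferentiated HEC was also low, at 0.77 ± 1.97. Pf4, a chemokine best known from platelets, differed by −2.20, while the platelet marker Itga2b differed by 0.30 and Ppbp, Gp9 and Gp1bb did not pass the detection limit. Of 13 detected chemokines and chemokine-binding receptors, Cxcl9 was the 1 higher member and Cxcl1, Pf4 and Ccl21a the 3 lower ones. These are 7.69% and 23.1% of the list, against 5.48% and 2.6% of all genes. Homeostatic chemokine Cxcl12 (0.05), monocyte chemokine Ccl2 (−0.30) and the venular receptor Ackr1 (0.62) lay between, and the median was −0.21.

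**Figure D4:**
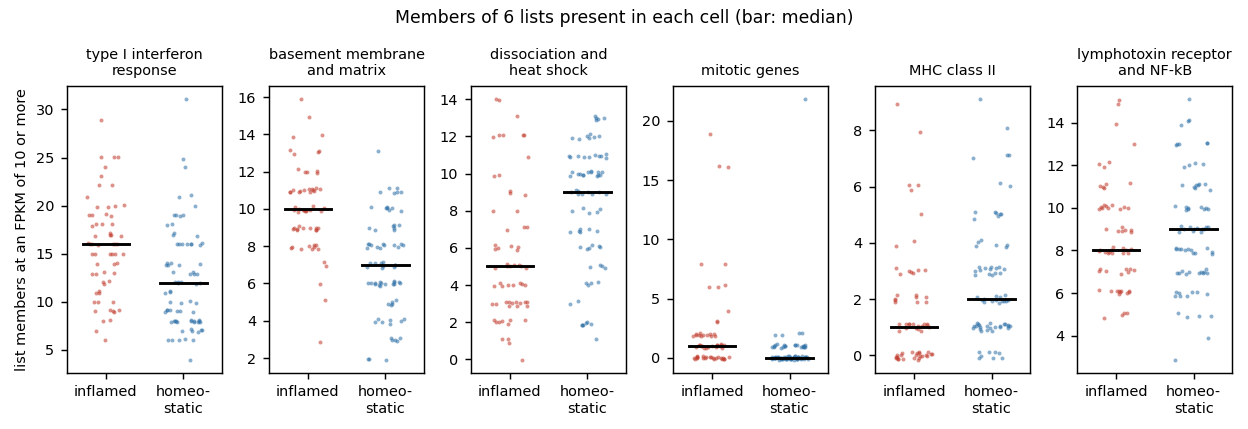
Number of genes of each of 6 lists that reached an FPKM of 10 in a cell, 1 point per cell, in 64 inflamed and 79 homeostatic HEC; the bar is the median. Inflamed cells held more members of the interferon and basement membrane lists and fewer dissociation and heat shock markers, and a small number of cells held many mitotic genes.

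The other leading negative differences were in genes of varied roles. Gm2a, the lysosomal activator of ganglioside breakdown, had a median of 51.1 FPKM (0 to 437.4) in inflamed HEC and of 274.9 FPKM (0.68 to 1495) in homeostatic HEC, a difference of −3.19. Of the inflamed cells, 13 lay below the lowest homeostatic cell and 4 above the homeostatic median. Kctd12, a partner of GABA-B receptors, differed by −3.29, cytosolic sulfotransferase Sult1a1 by −3.14 and phospholipid transfer protein Pltp by −3.01. Coagulation factor F8, which endothelial cells release, reached an FPKM of 1 in 21 of 64 inflamed cells (32.8%, 21.6 to 45.7) and in 59 of 79 homeostatic cells (74.7%, 63.6 to 83.8), a difference of −2.81. Cd24a, a sialoglycoprotein ligand of P-selectin, differed by −2.73.

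Mitotic genes were low in most cells of both groups, while DNA replication genes were found more widely. Of 19 detected mitotic genes 3 were higher, namely Cks2 (1.85), Cdk1 (1.06) and Ccnb2 (1.0), and of 20 detected DNA replication genes 2 were, Uhrf1 (1.39) and Mcm5 (1.05). The higher ones were 15.8% and 10% of the lists, against 5.48% of all genes. None of either list was lower, and the medians were 0.55 and 0.62. The median levels in homeostatic HEC were 0.25 and 0.55, and a gene at a level below 1 cannot be lower by 1. Mitotic genes such as Cdk1 (26.6% of inflamed, 1.27% of homeostatic cells) passed the filter through inflamed cells alone. The lack of lower members therefore says little, and the filter favoured positive medians. On the ratio of mean FPKM, which a few high cells can set, 13 mitotic and 7 DNA replication genes were higher. In 11 of 64 inflamed cells (17.2%, 8.9 to 28.7) and in 1 of 79 homeostatic cells (1.27%, 0.032 to 6.85), 3 or more mitotic genes reached an FPKM of 10. For DNA replication genes the same counts were 35 of 64 inflamed cells (54.7%, 41.7 to 67.2) and 37 of 79 homeostatic cells (46.8%, 35.5 to 58.4). Without the cells with 3 or more mitotic genes, 1 mitotic and no DNA replication gene was higher, while 465 genes were higher and 279 lower in all.

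Most genes of energy supply and protein turnover lay between the limits. Glycolytic enzymes had a median of 0.58, with Pgk1 (1.74), Pgam1 (1.53), Ldha (1.47) and Pkm (1.02) as the 4 higher members of 17. That is 23.5%, against 5.48% of all genes. Respiratory chain and ATP synthase genes had a median of 0.34, with 3 of 26 (11.5%) higher, led by Cox5b (1.84). That share lies between the 5.48% of all genes and the 12.7% of widely detected genes. In cells of similar gene number these medians were 0.26 and 0.12, and on the ratio of mean FPKM no respiratory gene was higher. Of 28 proteasome subunits 7 (25%, against 5.48% of all genes) were higher, led by Psmb5 (1.64) and the activator Psme3 (1.45), and Psmb7 (−1.08) was lower. The median was 0.64, but in cells of similar gene number 4 subunits were higher. Of 30 growth genes of the nucleolus, polyamine path and chaperonin 5 were higher, led by the GTPase Ran (1.48). These 5 are 16.7% of the list, against 5.48% of all genes. The 2 lower ones (6.67%, against 2.6% of all genes) were the transcription factor Mycn (−1.27) and the polyamine enzyme Odc1 (−1.42). In cells of similar gene number 1 growth gene was higher, and 2 were without the cells with mitotic genes. Cytosolic ribosomal protein genes hardly moved, with a median of 0.12 and 1 of 39 (2.56%, against 5.48% of all genes) higher, Rps2 (1.41).

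Cytoskeletal genes were higher for 6 of 24 members (25%, against 5.48% of all genes), with a median of 0.64. Tubulin gene Tubb6 differed by 2.70 and reached an FPKM of 10 in 24 inflamed and 7 homeostatic cells. Lamin gene Lmna (1.85), profilin Pfn1 (1.49) and tropomyosin Tpm4 (1.35) followed, while Actb differed by 0.30. Of 11 genes of caveolae and diaphragms, Prkcdbp (2.40), Sdpr (1.56) and Ehd4 (1.14) were higher and the coat gene Cav1 (−0.66) lay between, with a median of −0.16. The 3 higher genes are 27.3% of the list, against 5.48% of all genes.

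Secretory pathway genes showed no common direction. Of 32 endoplasmic reticulum genes 3 (9.38%, against 5.48% of all genes) were higher, Pdia4 (1.75), the transcription factor Xbp1 (1.24) and Ero1l (1.22). The 2 lower ones (6.25%, against 2.6% of all genes) were Herpud1 (−2.45), of protein degradation at that membrane, and cargo receptor Tmed3 (−2.43). The list median was −0.06. Of 25 Golgi transport genes 3 (12%) were higher, led by Tmed2 (1.68), and none lower. That share lies between the 5.48% of all genes and the 12.7% of widely detected genes. Among 18 lysosomal genes the proteases Ctsb (1.24) and Lgmn (1.01) and the granulin gene Grn (1.21) were higher. Cathepsins Ctsl (−1.42) and Ctsd (−1.23), the cholesterol carrier Npc2 (−1.13) and Gm2a were lower, with a median of −0.36. The 3 higher genes are 16.7% and the 4 lower ones 22.2% of the list, against 5.48% and 2.6% of all genes. In cells of similar gene number no lysosomal gene was higher. Of 15 cholesterol genes Fdps (1.18) was higher, which is 6.67% of the list and near the 5.48% of all genes.

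**Figure D5:**
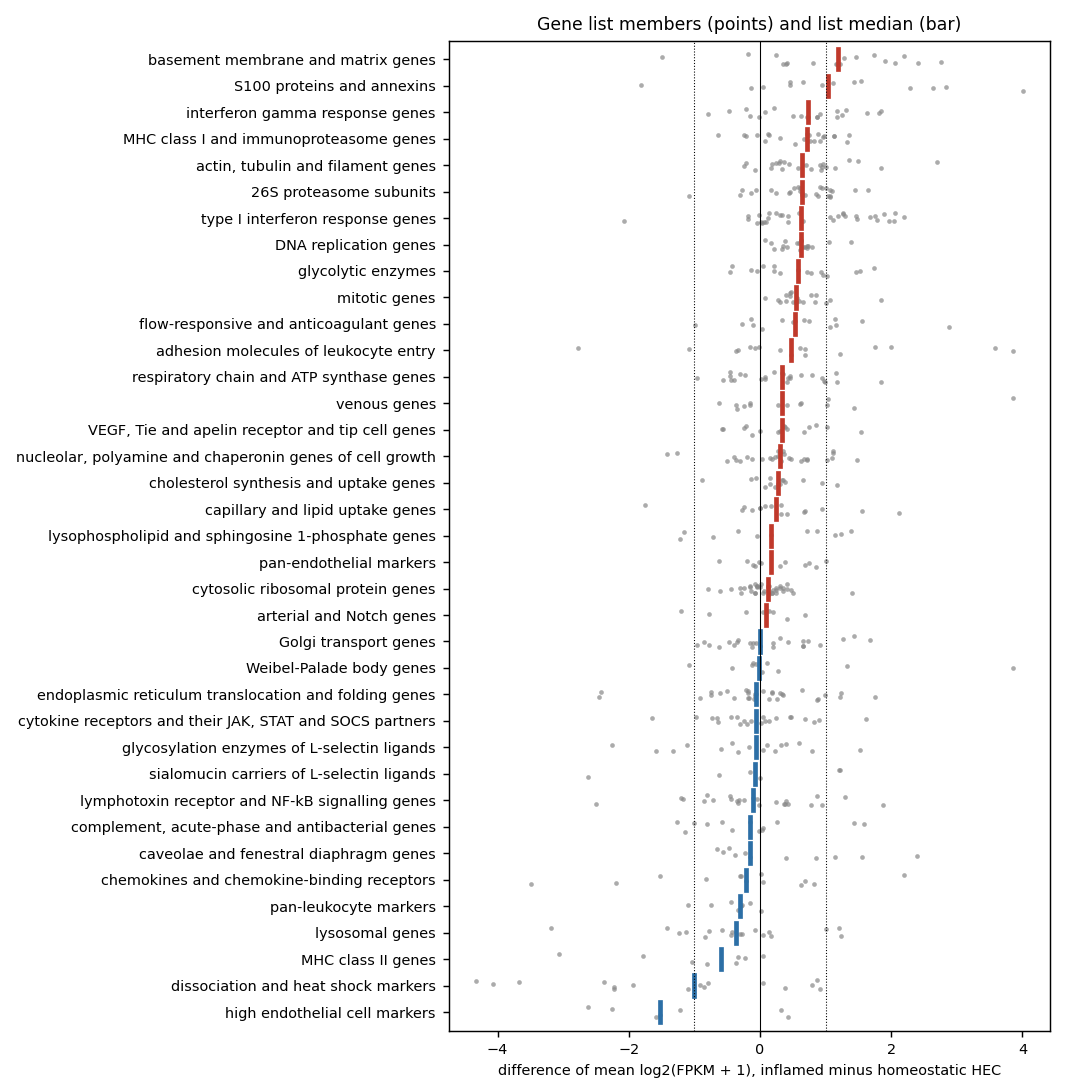
Difference of mean log2(FPKM + 1), inflamed minus homeostatic HEC, for the members of each list with 5 or more detected genes (points) and the list median (bar); dotted lines mark differences of 1 and −1. On this scale basement membrane genes have the highest median, 1.19, and high endothelial markers the lowest, −1.53.

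Vessel-type genes gave mixed results. The venous list had 4 of 14 members higher (28.6%, against 5.48% of all genes), with a median of 0.34. They were Selp, Lrg1 (1.43), the venous transcription factor Nr2f2 (1.03) and the apelin receptor Aplnr (1.02). Lrg1, a secreted glycoprotein of inflamed venules, was found in all cells, with a median of 2881 FPKM (492.9 to 11400) in inflamed HEC and of 1126 FPKM (33.68 to 7857) in homeostatic HEC. Its level was 11.47 ± 1.1 in dedifferentiated HEC, close to the 11.41 ± 1.03 of inflamed HEC, against 9.99 ± 1.31 in homeostatic HEC. No arterial gene was higher, and of 8 detected ones Hes1 (−1.21) was lower (12.5%, against 2.6% of all genes). The median was 0.09. Of 16 capillary genes Ly6c1 (2.12) and the water channel Aqp1 (1.56) were higher and Cd300lg (−1.75) was lower. These are 12.5% and 6.25% of the list, against 5.48% and 2.6% of all genes.

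Of 16 angiogenic genes Lyve1 (1.54) and Aplnr were higher (12.5%, against 5.48% of all genes), with a median of 0.33. Lyve1, a hyaluronan receptor of lymphatic endothelium, reached an FPKM of 10 in 16 inflamed and 3 homeostatic cells, while the lymphatic markers Prox1 and Reln did not pass the detection limit. Among 15 flow-responsive and anticoagulant genes 5 (33.3%, against 5.48% of all genes) were higher, and the median was 0.53. Slco2a1 came first, then Sdpr, thrombomodulin Thbd (1.16), Plaur (1.15) and the protein C receptor Procr (1.07). The flow-sensing factor Klf2 differed by 0.67. Of the 12 pan-endothelial markers Eng (1.01) was higher (8.33%, against 5.48% of all genes), with a median of 0.16.

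Acute-phase and complement genes were split. Of 13 detected members 2 (15.4%) were higher and 3 (23.1%) were lower, against 5.48% and 2.6% of all genes. Their median was −0.16. Serpina3n, an acute-phase protease inhibitor, reached an FPKM of 10 in 16 of 64 inflamed cells and in none of 79 homeostatic cells (0 to 4.56%), where its highest value was 1.15 FPKM, and it differed by 1.58. Serpina3n passed the filter through inflamed cells alone (29.7%, against 2.53% of homeostatic cells). Lrg1 was the other higher gene. Antibacterial Pglyrp1 (−1.27), complement regulator Cd55 (−1.15) and protease inhibitor Serpina1e (−1.01) were lower. Of 22 cytokine receptors and their signalling partners, kinase Jak2 (1.61) was higher and the interferon receptor chain Ifnar2 (−1.65) lower, and the median was −0.06. Each is 4.55% of the list, near the 5.48% higher and 2.6% lower of all genes.

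The spread over cells was of like size in both groups. Among 2521 genes found in at least 50% of the cells of both groups, the median SD was 2.43 in inflamed HEC and 2.5 in homeostatic HEC, and 43.8% had the larger SD in inflamed HEC. The largest narrowing was that of S100a11, followed by the membrane protein Fxyd5 (SD 1.6 in inflamed and 3.18 in homeostatic HEC), Serpinb1a and Cox5b (1.28 and 2.7). The largest widening was that of the zinc finger gene Zscan26 (2.29 in inflamed and 0.9 in homeostatic HEC), followed by Anxa5 and Gm2a (2.74 and 1.53). S100a11 and Serpinb1a were found at an FPKM of 1 in all 64 inflamed cells, against 67 and 77 of 79 homeostatic cells. Gm2a was found in 49 of 64 inflamed cells, against 78 of 79 homeostatic cells.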

How the data were processed

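Transcripts were measured in single endothelial cells sorted from mouse lymph nodes, captured on the Fluidigm C1 system and prepared with the Nextera XT kit, per the labels' protocols. The authors deposited 1 table of FPKM values for 24049 gene symbols and 220 cells. CASAVA 1.8, RSEM 1.2.18 and the build mm10 were used, per the submitters' processing notes, while their roles, the annotation, filters and doublet handling were not stated. In the compared cells 75.4% of values were 0.

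From the FPKM, means and SD of log2(FPKM + 1), differences, shares of cells and Clopper-Pearson intervals were computed with Python 3.11.15, numpy 2.4.6, pandas 2.3.3 and scipy 1.17.1. No cell was filtered out and no doublet caller was run. Depth was approximated from the steps of low FPKM over 3950 single-transcript genes, which gave 0.998 to 1.001 times the true depth in 20 simulated cells. Those cells were simulated with whole fragment numbers over the same transcript lengths, so the steps were built in. The simulation therefore does not check the depths of the deposited cells. Amplified fragments carry no molecular tags, so they do not count molecules. Positions are from GENCODE M21 (GRCm38).

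The comparison, the 34 gene lists and the 12 marker lists were chosen with earlier results of these data known. The lists hold 756 genes of the table, of which 640 passed the detection limit, and 4 symbols had no match. Leading genes were the 15 with the largest difference in each direction among genes in at least 50% of the cells of 1 of the groups, without predicted, clone, ribosomal and small RNA names. This left out 2610305D13Rik (−3.05).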

Additional observations from a re-analysis of the deposited data

How the results depend on the processing

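All 30 leading genes kept their direction and stayed past 1 under every alternative tried for them, with a smallest size of 1.14 at a pseudocount of 10. They were picked as the largest differences in these same cells, and a change of filter cannot move the difference of a gene. Their stability is therefore weak support. The counts of genes depended on the scale. With a pseudocount of 0.1, 1498 genes were higher and 575 lower, with a median of 0.22 over all genes. With a pseudocount of 10, 113 were higher and 85 lower. The log2 ratio of mean FPKM gave 1436 higher and 973 lower. At a limit of 2, 57 were higher and 46 lower. In cells of similar gene number 434 genes were lower. Scaling, the filters, the treatment of cells 43 and 60 and leaving out cells with mitotic genes or markers of another type kept both counts over all genes within 1.5 times. The basement membrane count of 11 was 9 in cells of similar gene number and 5 at a pseudocount of 10, and the type I interferon count of 16 was 14 and 6. Of 27 list counts of 3 or more members, higher or lower, 19 were smaller by over 1.5 times at a pseudocount of 10, 8 on the ratio of mean FPKM, 4 in cells of similar gene number, 4 without cells with markers of another type, 2 without cells with mitotic genes and 1 with genes in 50% of cells. Larger by that much were 10 at a pseudocount of 0.1, 3 on the ratio of mean FPKM, 2 in cells of similar gene number and 2 without cells with markers of another type. No paired analysis was possible because no test was made and the cell numbers tie no cells together. Each group is 1 sample, so none of this measures the spread between animals, and a gene absent from a shallow cell may have been missed.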

Other observations

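Marker lists of other cell types held few detected genes. Of 8 detected pan-leukocyte markers Arhgdib (−1.10) was lower (12.5%, against 2.6% of all genes), and the list median was −0.31. T cell markers had a median of 0.35 over 2 genes, B cell markers of −0.29 over 2, lymphatic markers of 0.35 over 2, pericyte markers of −0.06 over 2, platelet markers of −0.95 over 2, and the single detected fibroblastic reticular and myeloid markers differed by 0.01 and −0.04. No erythroid marker passed the detection limit. Golgi transport genes had a median of −0.00, capillary genes of 0.24, cholesterol genes of 0.27, growth genes of 0.30, lysophospholipid genes of 0.17 and oxysterol genes of −0.15.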
